A study of Danio rerio with 8 samples.

Results

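The glutathione peroxidase family and a set of selenoproteins were followed in the liver of adult zebrafish fed a control or an egg-based diet. The genes were chosen by symbol: gpx4a, gpx4b, gpx1a, gpx1b, gpx3, gpx7, gpx8, selenop, selenop2 and txnrd3. All 10 had a row among the 32520 genes of the count files, and 8 passed the filter on low counts.

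Whole livers came from 4 females on the Control diet and 4 females on the Whole Egg diet, and each fish gave 1 library. The diets were fed from day 21, and the labels give an age of 36 weeks at harvest. Control held several protein sources, and in Whole Egg whole egg replaced about 50% of the total protein. By the study's diet composition, Whole Egg also held more lipid and energy and less wheat starch than Control. The study's methods name a separate diet of elevated fat matched to Whole Egg in protein and lipid, which was not analysed here. Egg protein, egg lipid and the higher fat and energy of the diet therefore cannot be told apart. The selenium content of the egg is not given in the sources used here. The labels name no strain, genotype or tank for these fish, so the p-values measure only the spread between these 8 fish. Fish are named by diet and number, Control-1 to Control-4 on the first diet and likewise for Whole Egg.

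Glutathione peroxidases reduce hydrogen peroxide and lipid hydroperoxides with electrons from glutathione. Most vertebrate members with high activity carry selenocysteine, an amino acid inserted at UGA codons that would otherwise end translation. Liver is the main source of selenoprotein P, which carries selenium through the blood to other tissues. GPX4 acts on phospholipid hydroperoxides within membranes, and in mammals its loss leads to ferroptosis, an iron-dependent form of cell death.

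The depth, as reads counted on genes, ranged from 16916307 to 35871236 per fish. Values are CPM, counts relative to the library size after TMM scaling, which adjusts library sizes for differences in RNA composition. TMM factors ranged from 0.682 to 1.72, the highest in Whole Egg-2 and the next, in Whole Egg-3, at 1.18. A high factor lowers every CPM of a fish. The 10 genes together took 0.103% to 0.171% of a fish's counts. Each of the 12 hepatocyte markers and the 7 vitellogenin genes examined had counts. The vitellogenin genes alone took 53.9% (Whole Egg-2) to 68.5% (Control-1) of a fish's counts. Whole Egg-2 stood apart in its 15 ovary markers, which summed to 656 CPM against 4.38 to 77.2 CPM in the other 7 fish. As a share of counts its ovary markers were also far above those of every other fish. Its summed hepatocyte markers were 9360 CPM against 22716 to 34944 CPM in the other 7 fish. As a share of counts this hepatocyte sum was still the lowest, but it lay close below that of Control-4. Without Whole Egg-2, the ovary sum reached 77.2 CPM on Whole Egg and 45.7 CPM on Control. In bulk tissue, fewer cells of a type and less RNA per cell cannot be told apart.

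Of the phospholipid hydroperoxidases, gpx4a (ENSDARG00000068478) was the only one of the 8 genes tested for which the diets did not overlap under TMM. Its CPM were 385 in Control-1, 407 in Control-2, 322 in Control-3 and 357 in Control-4. On Whole Egg they were 301 in Whole Egg-1, 159 in Whole Egg-2, 193 in Whole Egg-3 and 185 in Whole Egg-4. Under TMM every Whole Egg fish thus lay below every Control fish, and Whole Egg-1 lay nearer to Control-3 than to the next Whole Egg fish. Between 3074 and 10180 reads per fish stood behind these values. The mean was 368 ± 36.7 CPM on Control and 210 ± 62.6 CPM on Whole Egg (SD, n = 4), which is 43.1% lower.

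In edgeR's quasi-likelihood test gpx4a had a log2 fold change of −0.81 (SE 0.25, 95% interval −1.38 to −0.24). Its unadjusted p was 0.0105, the 29th smallest of 13379 genes, and its adjusted p over all of them was 0.810, so it did not pass the threshold of 0.1. Whole Egg-2, the fish that stood apart in its ovary markers, was also the lowest for gpx4a under TMM. As a share of counts Whole Egg-4 was lower, with 3074 gpx4a reads of 16916307 against 5436 of 20031071 in Whole Egg-2. The log2 fold change of gpx4a was −0.70 without Whole Egg-2 and −1.05 without Whole Egg-1. Among all genes tested, 1.13% had every Whole Egg fish below every Control fish, and 2.14% had diets that did not overlap in either direction. An unadjusted p under 0.05 with a lower Whole Egg level was found for 1.36% of them. The study picked gpx4a from 6 of these 8 fish, so these values are not independent evidence of a difference. The remaining pair, Control-4 and Whole Egg-1, had 357 and 301 CPM, a comparison of 1 fish with 1 fish and no replicate check. By RT-PCR, the study reported a similar trend for gpx4a in sequenced females. That trend was shown for the 6 fish behind the choice of gpx4a and not for this pair. With more females, and in males, the study reported no difference between these diets. It did report higher gpx4a in females on a wheat gluten diet, not analysed here, than in females on Whole Egg.

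**Figure D1:**
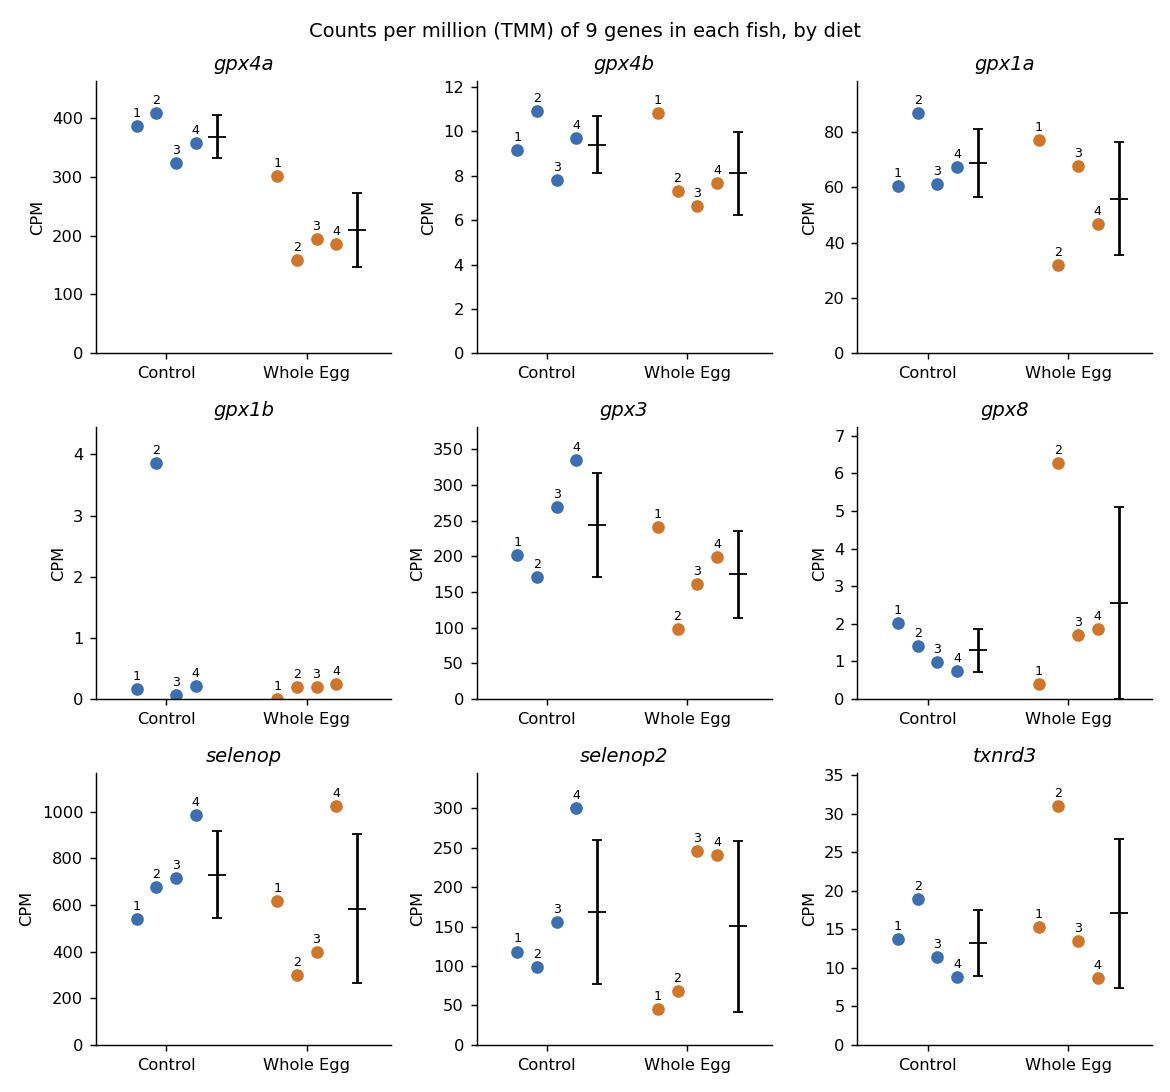
Each panel plots CPM (TMM, linear axis from 0) of 1 gene in each fish, with the fish number above each point and the mean ± SD of the 4 fish of a diet to the right. No bar is drawn for gpx1b, which rests on 1 fish, and gpx7 is left out because it had 0 reads. The diets are apart for gpx4a (322 to 407 on Control, 159 to 301 on Whole Egg) and overlap in the other panels.

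The size of the gpx4a difference and the lack of overlap depended on how libraries were scaled. As a share of counts the diets overlapped: Control-4 had 5199 gpx4a reads of 21346815, below Whole Egg-2 with 5436 of 20031071. These totals include the vitellogenin reads, which took 67.5% of counts in Control-4 and 53.9% in Whole Egg-2. Such a share therefore also depends on the vitellogenin level of the fish. Scaled to rpl13a, the ribosomal protein gene used as the RT-PCR reference in the study, the log2 fold change of gpx4a came to −0.47 (SE 0.28, adjusted p in edgeR 0.539). With library totals and no composition factor, an alternative chosen after seeing the data, it was −0.43 (SE 0.25, adjusted p in edgeR 0.401). These scalings also moved the median of all genes, to 0.45 and 0.49 from 0.04 under TMM. Relative to that median gpx4a stood at −0.92 under both, and at −0.86 under TMM. With vitellogenin genes left out under TMM, also chosen after seeing the data, its log2 fold change was −0.82 (SE 0.26, adjusted p in edgeR 0.813). The gene rpl13a itself had 503 ± 125 CPM on Control and 392 ± 118 CPM on Whole Egg (SD, n = 4), with overlapping diets. The log2 ratio of gpx4a to rpl13a within a fish ran from −0.88 to 0.17 on Control and from −1.43 to −0.50 on Whole Egg, so that on this ratio the diets overlapped.

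Its nearest paralog, gpx4b (ENSDARG00000076836), encodes the same kind of enzyme and was counted at 127 to 250 reads per fish. The CPM of gpx4b were 9.17, 10.9, 7.82 and 9.69 in Control-1 to Control-4, and 10.8, 7.32, 6.65 and 7.65 in Whole Egg-1 to Whole Egg-4. The diets overlapped, with Whole Egg-1 above 3 of the 4 Control fish (log2 fold change −0.21, SE 0.22, 95% interval −0.72 to 0.29, edgeR adjusted p = 0.848). Leaving out 1 fish moved the log2 fold change of gpx4b from −0.39 (without Whole Egg-1) to −0.11 (without Whole Egg-3). It was the steadiest of the 8 genes tested: its SD over the 8 fish was 0.27 on the log2 scale, and 88.2% of all genes tested had a larger SD.

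The ratio of gpx4a to gpx4b within a fish hardly depends on how libraries are scaled. On the log2 scale it was 5.38 in Control-1, 5.21 in Control-2, 5.35 in Control-3 and 5.19 in Control-4. It was 4.79 in Whole Egg-1, 4.43 in Whole Egg-2, 4.84 in Whole Egg-3 and 4.58 in Whole Egg-4. The highest Whole Egg fish therefore lay below the lowest Control fish. The mean was 5.28 ± 0.096 on Control and 4.66 ± 0.19 on Whole Egg (SD, n = 4), a difference of −0.62 (two-sided exact permutation test over 35 splits, p = 0.0286, the smallest that 4 fish against 4 can give). Leaving out 1 fish at a time kept the difference between −0.68 and −0.55. The choice of gpx4a by the study on 6 of these fish bears on this ratio too. Reads that map equally well to several places were not counted, so stretches shared by the paralogs are missing from both counts.

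**Figure D2:**
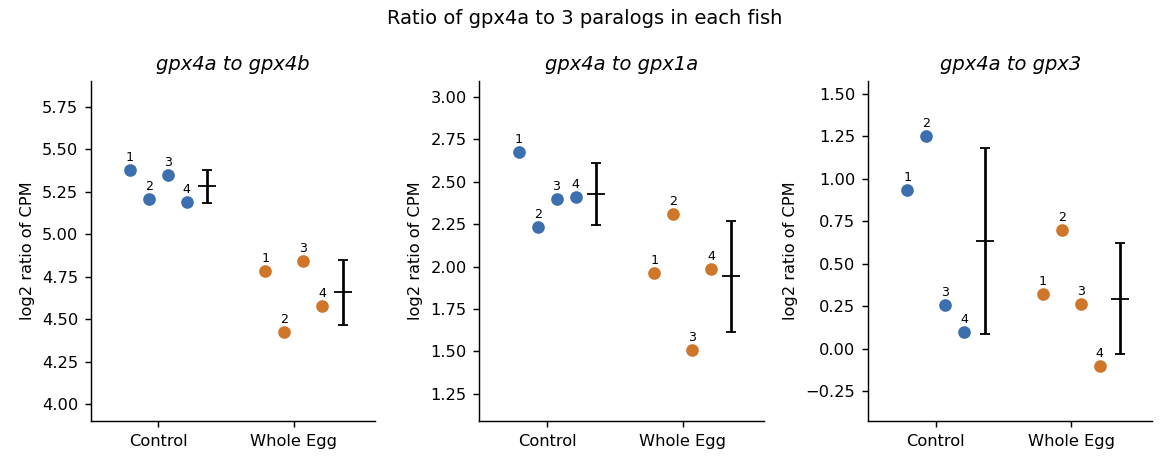
The log2 ratio of the CPM of gpx4a to those of gpx4b, gpx1a and gpx3 in each fish, with fish numbers and the mean ± SD of the 4 fish of a diet; each axis spans the same log2 range around its own centre and does not start at 0. Against gpx4b the diets are apart (5.19 to 5.38 and 4.43 to 4.84), and against gpx1a and gpx3 they overlap.

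Among the cytosolic enzymes, which reduce hydrogen peroxide, gpx1a (ENSDARG00000018146) was counted at 776 to 1930 reads per fish. The CPM of gpx1a were 60.4, 86.7, 61.1 and 67.3 in Control-1 to Control-4, and 77.1, 32.02, 67.8 and 46.8 in Whole Egg-1 to Whole Egg-4. Whole Egg-2 was the lowest of the 8 fish, while Whole Egg-1 and Whole Egg-3 lay above 3 of the 4 Control fish. The log2 fold change of −0.30 (SE 0.30, 95% interval −0.97 to 0.37, edgeR adjusted p = 0.843) became −0.10 without Whole Egg-2 and −0.50 without Whole Egg-1. The ratio of gpx4a to gpx1a was 2.43 ± 0.18 on Control and 1.94 ± 0.33 on Whole Egg on the log2 scale (SD, n = 4). Its highest Whole Egg fish, Whole Egg-2 at 2.31, lay above Control-2 at 2.23.

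The second cytosolic gene, gpx1b (ENSDARG00000006207), had 85 reads in Control-2 and 0 to 7 reads in each of the other 7 fish, and did not pass the filter. In CPM that was 3.85 in Control-2 against 0.0633 to 0.206 in the other Control fish and 0 to 0.241 on Whole Egg. No fold between the diets is given, since all but 1 fish were near the limit of 3 counts. Control-2 was also the fish with the highest intestine markers: the mean log2 CPM of the 7 markers found was 4.997 there and 0.66 to 1.49 in the other 7 fish. Their summed level, 223 to 467 CPM on Control and 118 to 364 CPM on Whole Egg, was highest in Control-2 as well, as was that of the 10 exocrine pancreas markers found (1694 CPM, against 137 to 1258 CPM in the others). No marker of the intestine or pancreas list was at 0 in all fish, and their part in the gpx1b value was not tested.

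The secreted peroxidase gpx3 (ENSDARG00000043342), found in plasma in mammals, had 202, 171, 270 and 335 CPM in Control-1 to Control-4. In Whole Egg-1 to Whole Egg-4 its CPM were 241, 98.1, 161 and 199. The fish of the diets were interleaved, with Control-4 highest and Whole Egg-2 lowest. The mean was 244 ± 72.9 CPM on Control and 175 ± 60.6 CPM on Whole Egg (SD, n = 4; log2 fold change −0.48, SE 0.33, 95% interval −1.23 to 0.26, edgeR adjusted p = 0.810). Without Whole Egg-2 the log2 fold change of gpx3 was −0.28.

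The peroxidases of the endoplasmic reticulum, gpx7 and gpx8, carry cysteine in place of selenocysteine in mammals. No read was counted on gpx7 (ENSDARG00000091511) in any fish, which allows up to 3 reads per fish, or 0.0878 to 0.206 CPM, for counting error only. For gpx8 (ENSDARG00000013302) the CPM were 2.03, 1.405, 0.982 and 0.756 in Control-1 to Control-4. On Whole Egg they were 0.393, 6.26, 1.71 and 1.87 in Whole Egg-1 to Whole Egg-4, so that the Whole Egg diet held both the lowest and the highest fish. The high fish was Whole Egg-2, with 214 reads where the other 7 fish had 8 to 42, and it was also the fish with the high ovary markers. The log2 fold change of gpx8 was 0.998 (SE 0.70, 95% interval −0.59 to 2.58, edgeR adjusted p = 0.812) in all fish and 0.03 without Whole Egg-2. The part of the ovary markers in this value was not tested.

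Of the selenoprotein P genes, selenop (ENSDARG00000093549) had 9760 to 22586 reads per fish. Its CPM were 540, 677, 715 and 986 in Control-1 to Control-4. In Whole Egg-1 to Whole Egg-4 they were 615, 301, 398 and 1023, so that Whole Egg held both the lowest fish, Whole Egg-2, and the highest, Whole Egg-4. Its log2 fold change came to −0.32 (SE 0.40, 95% interval −1.21 to 0.57, edgeR adjusted p = 0.869). It was −0.11 without Whole Egg-2 and −0.74 without Whole Egg-4.

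The paralog selenop2 (ENSDARG00000079727) had 118, 99.1, 155 and 301 CPM in Control-1 to Control-4. In Whole Egg-1 to Whole Egg-4 it had 46.02, 68.1, 246 and 241 CPM. Its highest fish, Control-4, lay 6.54-fold above its lowest, Whole Egg-1, and only 12.1% of all genes tested varied more between fish on the log2 scale. These are the same 2 fish that the study left out of one of its comparisons. With all fish the log2 fold change of selenop2 was −0.17 (SE 0.59, 95% interval −1.49 to 1.16, edgeR adjusted p = 0.949), and with Control-4 and Whole Egg-1 left out it was 0.57 (SE 0.50, edgeR adjusted p = 0.806). Leaving out Control-4 alone gave 0.27, Whole Egg-1 alone 0.13 and Whole Egg-2 alone 0.084, so that 1 fish decided its direction.

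Thioredoxin reductase, which keeps thioredoxin reduced with electrons from NADPH, was represented by txnrd3 (ENSDARG00000100374). The CPM of txnrd3 were 13.7, 18.9, 11.5 and 8.87 in Control-1 to Control-4, and 15.3, 30.9, 13.5 and 8.62 in Whole Egg-1 to Whole Egg-4. Whole Egg-2 was the highest fish and Whole Egg-4 the lowest, with all Control fish in between. It had a log2 fold change of 0.37 (SE 0.40, 95% interval −0.53 to 1.27, edgeR adjusted p = 0.851) in all fish and −0.080 without Whole Egg-2.

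**Figure D3:**
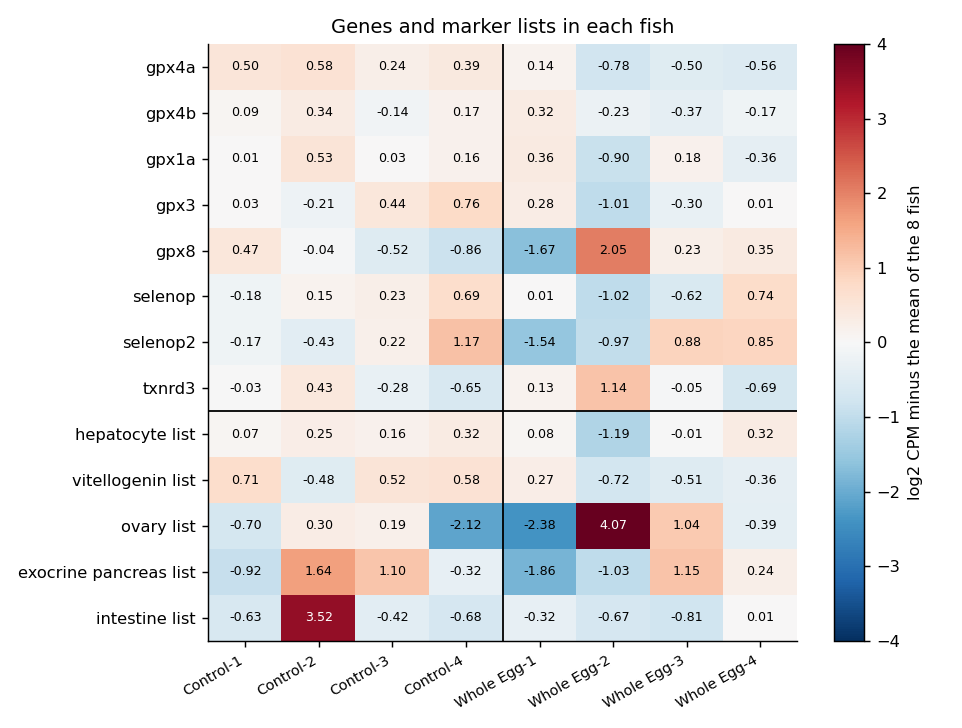
Each cell gives log2 CPM minus the mean of the 8 fish, for the 8 genes tested and, below the line, for the mean log2 CPM of 5 marker lists. Under TMM, Whole Egg-2 is lowest for gpx4a, gpx1a, gpx3 and selenop and highest for gpx8, txnrd3 and the ovary list, and Control-2 is highest for the intestine list.

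Over the 8 genes tested, Whole Egg-2 was the lowest fish for 4 and the highest for 2 under TMM. As a share of counts it was not the lowest for any of these 4. Whole Egg-4 had a smaller share on gpx4a, and Control-1 on gpx1a, gpx3 and selenop. Between the diets, 0 of the 8 passed an adjusted p of 0.1, as did 0 of all 13379 genes (0%). At an unadjusted p under 0.05 there was 1 of the 8, gpx4a, and 522 of all genes (3.9%). Of these 522 genes, 340 were higher on Whole Egg (2.54% of all genes) and 182 lower, while the higher ones numbered 189 of 471 with upper quartile scaling, 871 of 883 scaled to rpl13a and 1458 of 1468 with library totals. DESeq2 called 0 genes too, with 861 at an unadjusted p under 0.05. The log2 fold change was below 0 for 6 of the 8 genes and for 45.8% of all genes, though 4 of the 6 (gpx4b, gpx1a, selenop and selenop2) were above 0 with library totals. The median was −0.26 for the 8 and 0.04 for all. With Control-4 and Whole Egg-1 left out and at least 30 counts required in every fish, DESeq2 called gpx4a (−1.01 on the log2 scale, SE 0.24, adjusted p = 0.0127) and no other of the 10 genes, among 61 called of 8195 (0.744%). On the same counts edgeR called 0 of 8195 (0%), with 496 at an unadjusted p under 0.05, and gave gpx4a an adjusted p of 0.798.

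**Figure D4:**
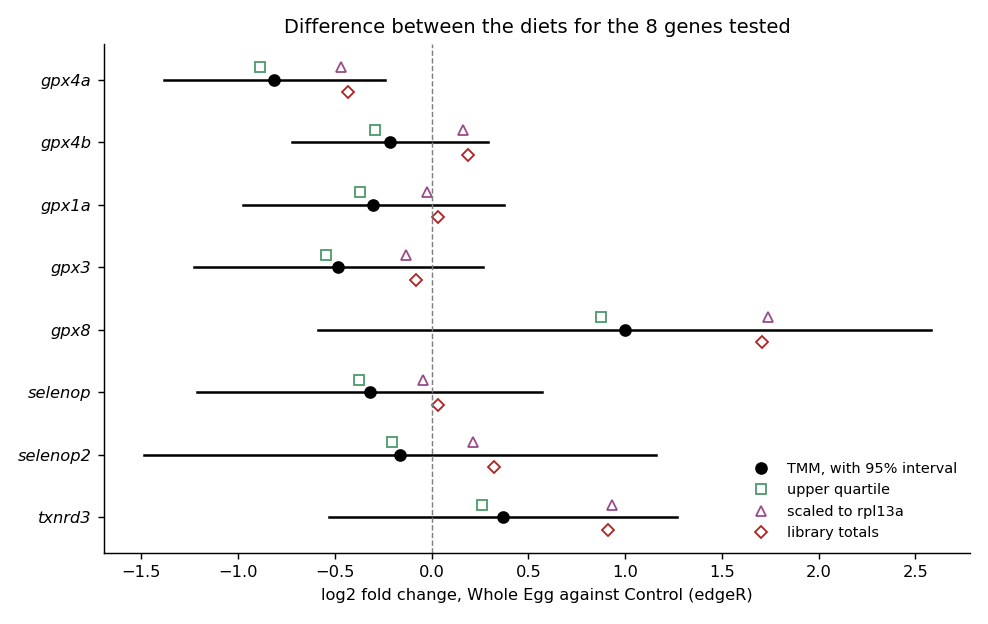
Points give the log2 fold change of Whole Egg against Control for the 8 genes tested, with lines for the 95% interval of the TMM fit and open symbols for 3 other scalings. The interval of gpx4a (−1.38 to −0.24) is the only one that leaves out 0, and scaling to rpl13a or to library totals moves every gene to the right.

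Genes whose levels followed gpx4a were looked for among 3324 other genes with a mean of at least 10 CPM. Likeness was the root mean square difference of log2 CPM under TMM, each gene centred on its own mean over the 8 fish. Among the most alike were lonrf4 at 0.21 and cyp2ad3, of the cytochrome P450 family, at 0.22. The CPM of lonrf4 were 28.9 to 39.2 on Control and 18.3 to 24.3 on Whole Egg, without overlap under TMM, as was so for 1.13% of all genes. Because lonrf4 was picked for its likeness to gpx4a, whose diets did not overlap, its own lack of overlap is not separate evidence. Those of cyp2ad3, picked in the same way, overlapped, with 20.01 to 27.2 on Control and 11.2 to 26.7 on Whole Egg. The log2 fold change of lonrf4 was −0.63 under TMM and −0.23 with library totals, and that of cyp2ad3 −0.57 and −0.18. Of the 10 genes chosen, those above that level were ranked too, and gpx1a ranked 126, gpx3 562, selenop 1651, txnrd3 2840 and selenop2 3064.

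The other selenoprotein genes numbered 28 on the list, of which 19 had a row by symbol and 15 were tested. None had an unadjusted p under 0.05 in edgeR (0 of 15, with 0 called). Under TMM 11 had a log2 fold change below 0 (45.8% of all genes), and the median was −0.24 (0.04 for all genes). The smallest p belonged to dio1, a deiodinase that activates thyroid hormone, and to selenoh, a nuclear selenoprotein. CPM of dio1 were 26.04 to 40.4 on Control and 9.78 to 27.9 on Whole Egg, lowest in Whole Egg-2 (log2 fold change −0.60, SE 0.34, edgeR adjusted p = 0.810, and −0.35 without that fish). Those of selenoh were 3.31 to 3.52 on Control and 3.05 to 8.72 on Whole Egg, highest in Whole Egg-2. Its log2 fold change of 0.59 became 0.19 without Whole Egg-2. With library totals, where the median of all genes was 0.49, dio1 was at −0.25 and selenoh at 1.18. The rest of this list was not examined under that scaling.

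Selenocysteine is made on its own tRNA and inserted with the help of dedicated binding proteins. Of 13 listed genes of this machinery and of selenium handling, 8 had a row and 7 were tested, with 0 at an unadjusted p under 0.05 in edgeR and a median log2 fold change of −0.04. The smallest p were those of selenbp1, a selenium-binding protein (−0.23, SE 0.21, edgeR adjusted p = 0.836), and sephs1 (0.73, SE 0.70, edgeR adjusted p = 0.839). The latter rested on Whole Egg-2, at 4.57 CPM against 0.301 to 1.59 in the other 7 fish.

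Glutathione is the electron donor of the peroxidases. Of 16 listed genes of its synthesis and turnover, 12 were tested, 6 with a log2 fold change above 0 and 6 below it, and the median was 0.03. An unadjusted p under 0.05 was found for 3 with higher Whole Egg levels (gss, chac1 and gclm) and 1 with lower (oplah), where all genes gave 2.54% and 1.36%, and 0 passed the adjusted threshold in edgeR. Glutathione synthetase, gss, had 1.48, 1.09, 1.01 and 1.24 CPM in Control-1 to Control-4 and 2.16, 2.31, 3.02 and 1.63 in Whole Egg-1 to Whole Egg-4. All Whole Egg fish lay above all Control fish (log2 fold change 0.93, SE 0.29, edgeR adjusted p = 0.810), as was so for 1.01% of all genes. The gene for 5-oxoprolinase, oplah, which returns a breakdown product of glutathione to glutamate, had 6.15, 7.07, 6.11 and 7.36 CPM on Control. On Whole Egg it had 4.13, 4.83, 4.40 and 4.82 CPM, all below Control under TMM (log2 fold change −0.55, SE 0.19, edgeR adjusted p = 0.810), as was so for 1.13% of all genes. The log2 fold change of oplah shrank to −0.11 scaled to rpl13a and to −0.083 with library totals, while that of gss was 1.39 and 1.43. The other 2, chosen after their values were seen, were chac1, which degrades glutathione (1.09, SE 0.46), and gclm, a subunit of the rate-limiting ligase (0.79, SE 0.35), each with an edgeR adjusted p of 0.810 and overlapping diets.

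Thioredoxins and peroxiredoxins, a second route of peroxide reduction, had 13 of 16 genes tested, with 0 at an unadjusted p under 0.05 in edgeR and a median log2 fold change of 0.03. The peroxiredoxin prdx1 was at 6.44 CPM in Whole Egg-2 and 0.481 to 1.47 CPM in the others, and its log2 fold change of 1.52 became 0.26 without Whole Egg-2. The thioredoxin inhibitor txnipa was at 443 CPM in Whole Egg-3 and 15.1 to 68.3 CPM in the others. Without Whole Egg-3 its log2 fold change turned from 1.82 to −0.37.

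Other antioxidant enzymes and regulators of the Nrf2 list had 6 of 14 genes tested, all with a log2 fold change below 0 under TMM (45.8% of all genes), and a median of −0.26. With library totals abcc2 was above 0 (0.014) and nqo1 below it (−0.77), and the other 4 were not examined under that scaling. The quinone reductase nqo1 had an unadjusted p of 0.0249, the only one under 0.05. It had 2.31, 4.76, 2.12 and 1.51 CPM on Control and 1.28, 1.43, 1.47 and 0.603 on Whole Egg (log2 fold change −1.15, SE 0.43, edgeR adjusted p = 0.810). Between 10 and 105 reads per fish stood behind these values, and as a share of counts the diets overlapped. Under TMM the diets did not overlap, with Whole Egg lower, as was so for 1.13% of all genes. Whole Egg-3 lay just below Control-4, and without Control-2 the log2 fold change was −0.71. The transporter abcc2, which exports glutathione conjugates into bile, had 163 ± 19.4 CPM on Control and 123 ± 27.9 on Whole Egg (SD, n = 4; −0.41, SE 0.24, edgeR adjusted p = 0.810).

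Genes of lipid peroxidation and ferroptosis had 10 of 14 tested, with 0 at an unadjusted p under 0.05 in edgeR. Under TMM 8 had a log2 fold change above 0 (7246 of all 13379 genes), and the median was 0.18. The phospholipase pla2g6 had 8.20 to 9.67 CPM on Control and 5.73 to 7.92 CPM on Whole Egg, without overlap under TMM (−0.34, SE 0.19, edgeR adjusted p = 0.810). Of all genes, 1.13% had Whole Egg below Control without overlap. The log2 fold change of pla2g6 turned to 0.13 scaled to rpl13a and to 0.15 with library totals. The ferritin receptor ncoa4, which brings ferritin to degradation, had 77.3 ± 20.5 CPM on Control and 119 ± 65.9 on Whole Egg (SD, n = 4; 0.62, SE 0.48, edgeR adjusted p = 0.823). Whole Egg-2 was the lowest fish, at 30.1 CPM, and the log2 fold change of ncoa4 was 0.94 without it and 0.36 without Whole Egg-4.

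**Figure D5:**
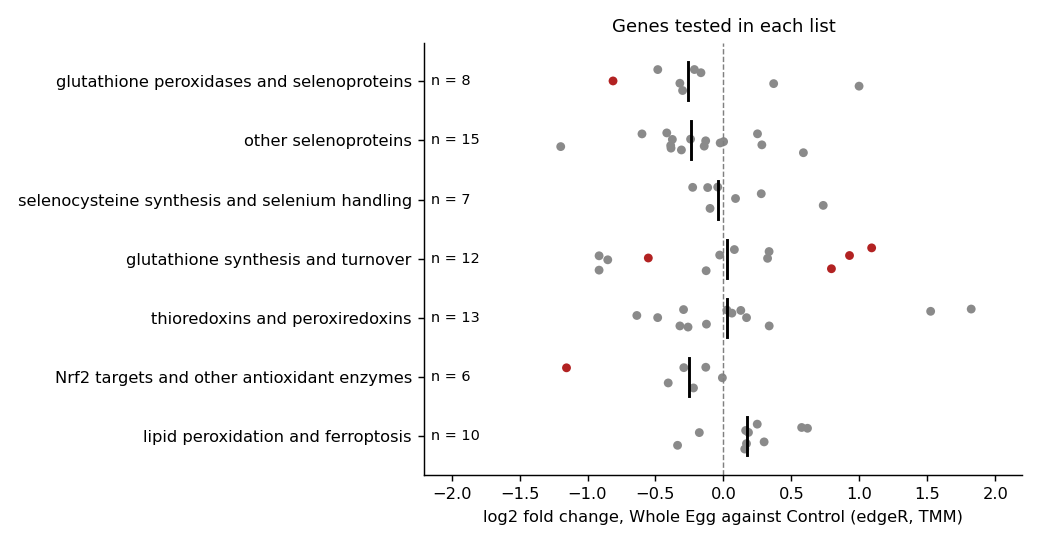
Each point is the log2 fold change (Whole Egg against Control, edgeR with TMM) of 1 gene tested, by list, with a black bar at the median of the list and red for an unadjusted p under 0.05; the vertical scatter within a list has no meaning. The red points are gpx4a, gss, chac1, gclm, oplah and nqo1, and none of them passed the adjusted threshold.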

How the data were processed

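RNAseq was run on whole livers of 4 Control and 4 Whole Egg females. Per the labels and methods, single-end reads of 75 bases were filtered (Trimmomatic 0.36) and aligned (STAR 2.5.2b, genome GRCz11), and the authors deposited raw counts per Ensembl gene, neither normalized nor filtered. Reads on no single gene (44.6% to 51.9% of a file's total for the strand used) were left out. Counts of 1 strand were used, which held 97.9% of those of both.

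Tests were run in R 4.3.3 with edgeR 4.0.16 (TMM, filterByExpr with a minimum count of 10, quasi-likelihood test, Benjamini-Hochberg over all genes, DEGs at an adjusted p under 0.1) and DESeq2 1.42.0 as an alternative. Log2 CPM have a prior count of 2. Intervals cover 95%. The tests were checked on simulated data, in which edgeR missed the smaller fold changes and DESeq2 recovered more of them but also called more unchanged genes, so a count of 0 does not show that no gene changed. All 28 pairs of fish differed beyond counting noise. Counts per fish limit the precision of genes with few reads.

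The members and lists were chosen with earlier results of these data known. The genes named are the members, the 2 with the smallest p in each list, the 3 most like gpx4a (1 of which is not reported here), and rpl13a. Outside this rule, chac1, gclm, gpx2 and gpx9 were named after their values or names were seen. Symbols of 6 members came from a table of gene names, 2 from its capitalized entries, and 2 (gpx4b, gpx8) from the study's supplement. Listed symbols without a unique match were not used here. Levels are not compared between genes, because exonic lengths were not used here. The supplement also holds the authors' fold changes and p-values, which were not used. The alternatives were DESeq2, other scalings, filters, strand, the fish number as a block, a threshold of 0.05 and fish left out. Library totals and leaving out vitellogenin genes were chosen after seeing the data.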

Additional observations from a re-analysis of the deposited data

Results flagged for a closer look

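Of 18 sets of 4 fish examined (each gene with reads, in each diet), 2 held a fish far from the other 3 of its diet, where chance flags about 1 in 20. Both concern gpx1b. Control-2 was at 3.85 CPM, against 0.0633 to 0.206 in the other Control fish. Whole Egg-1 was at 0 CPM, against 0.204 to 0.241 in the other Whole Egg fish, which stood on 4 to 7 reads each.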

How the results depend on the processing

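The count of genes called stayed at 0 except with DESeq2 and the fish number as a block (20 genes) and with DESeq2 on the 6 fish left after dropping Control-4 and Whole Egg-1, at 30 counts or more (61 genes, gpx4a the 1 member called). Those 6 fish are the ones from which the study drew gpx4a. With all 8 fish, gpx4a had an adjusted p of 0.217 in DESeq2 with the block and 0.740 in edgeR with it. The labels do not say what the fish numbers stand for, so the block is only an alternative. The deviations of same-numbered fish correlated at 0.198, 0.352, 0.0787 and 0.451. Of the 4 Control fish, 3 correlated best with the Whole Egg fish of their number. Genes at an unadjusted p under 0.05 numbered 754 with the block and 522 without it. They numbered 1374 without Whole Egg-1, 1343 without Whole Egg-4 and 244 to 575 without any other single fish.

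The ratio of gpx4a to gpx4b differed by −0.62 with the replicate block (exact sign-flip p = 0.125), by −0.57 with Control-2 and Whole Egg-2 left out and by −0.70 with Control-4 and Whole Egg-1 left out (exact permutation p = 0.1 for both). These are the smallest p that the designs allow.

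The log2 fold change of gpx4a kept its sign in all 24 alternatives, from −1.06 to −0.43, as did gpx3 and gpx8 in theirs. Signs that turned belonged to values past no threshold. Scaling to rpl13a turned gpx4b (0.16), selenop2 (0.22), selenbp1 (0.19) and pla2g6 (0.13). Library totals turned gpx4b (0.19), gpx1a (0.031), selenop (0.031), selenop2 (0.32), selenbp1 (0.21), abcc2 (0.014), pla2g6 (0.15) and rpl13a (0.064). With Control-2 and Whole Egg-2 left out, gpx1a was at 0.025 and sephs1 at −0.28. With Control-4 and Whole Egg-1 left out, selenop2 was at 0.57, and at 0.58 with 30 counts in every fish in both edgeR and DESeq2. Over single fish left out, selenop2 ranged from −0.50 to 0.27, txnrd3 from −0.080 to 0.60, sephs1 from −0.31 to 1.06 and txnipa from −0.37 to 2.28. The cause was not tested.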

Other observations

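Glutathione peroxidase genes outside the list, looked up after the names were seen, were hardly counted in these livers. For gpx2, an intestinal enzyme in mammals, there were 4 reads in Control-1, 5 in Control-2, 1 each in Whole Egg-2 and Whole Egg-3 and 0 in the other 4 fish. For gpx9 there were 0 reads in all 8 fish.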
